A study of Homo sapiens with 8 samples.

Results

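The p53 network was taken as 32 named genes that act with p53 or are known to be transcribed by it, and was followed through 8 arrays of 2 human lung cancer lines, NCI-H1299 (H1299) and NCI-H2009 (H2009). Of the 32 genes, 28 had a probe set with their symbol alone and were measured, out of 18404 genes on the array. The probe set of TNFRSF10C carries the symbol of a second gene, so no value is given for it, and the other 3 genes were not analysed here. The gene of p53 itself was not analysed here either, so the p53 status of the lines could not be checked against the data.

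p53 is a transcription factor that is stabilised by DNA damage and other stress and then switches on genes for cell cycle arrest, DNA repair, apoptosis and metabolism. MDM2 is both its target and its main inhibitor, a ubiquitin ligase that marks p53 for degradation, and the pair form a feedback loop. H1299 is known to lack p53 protein and H2009 to carry a missense mutant, and several of these genes are also known targets of other factors, among them p73, NF-kB and ATF4.

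Each line was infected for 2 days with lentivirus carrying a short hairpin RNA, kept in puromycin for 2 days, and harvested on day 4. The groups were H1299 with PTK7 hairpins, H1299 with control hairpins, H2009 with PTK7 hairpins and H2009 with control hairpins, with 2 arrays each. The PTK7 hairpins, PTK7-1 and PTK7-2, target PTK7, a pseudokinase at the cell surface that takes part in planar cell polarity and Wnt signalling. The control hairpins target GFP and luciferase (LUC), which the cells do not have. All 8 cultures therefore carry a lentivirus, a hairpin and puromycin selection, and none was left untreated. Each array is a single hairpin in a single line. The labels name no repeat cultures, so the spread behind each p-value is that between these arrays and may in part be technical. In the line and knockdown comparisons it also holds the difference between the 2 hairpins of each group. Values are log2 expression values from RMA, which removes background, aligns the arrays and combines the probes that read the same transcript. Differences between dim values are compressed on this scale, and the number of arrays limits the precision.

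PTK7 stood at 5.63 with PTK7-1 and 5.53 with PTK7-2 in H1299, against 5.73 with GFP and 6.03 with LUC. In H2009 it stood at 5.63 with PTK7-1 and 5.94 with PTK7-2, against 6.64 with GFP and 6.86 with LUC. The signal left was 81.0% of the control signal in H1299 and 51.4% in H2009. In H1299 the control arrays lay further apart than the PTK7-1 array lay from GFP. In the comparisons of PTK7 with control hairpins below, without the hairpin as a block, PTK7 itself did not pass in either line or averaged over them. Array medians lay between 5.31 and 5.41. Epithelial markers averaged 6.22 to 6.79 in H1299 and 11.2 to 11.3 in H2009, with the adhesion genes EPCAM and CDH1 at 3.32 to 3.58 and 3.92 to 4.19 in H1299, against 11.17 to 11.30 and 11.17 to 11.43 in H2009. The adenocarcinoma transcription factor gene NKX2-1 lay at 4.96 to 5.64 in H1299 and 6.89 to 8.36 in H2009, with the lineage list at 4.57 to 4.79 in H1299 and 5.47 to 6.11 in H2009. Of 4 mesenchymal markers, VIM, CDH2 and ZEB1 were higher in H1299, while FN1 was lower, at 6.30 to 6.97 in H1299 and 9.83 to 9.98 in H2009, and the list averaged 8.81 to 9.09 in H1299 and 7.24 to 7.97 in H2009. Mean levels of leukocyte, fibroblast and endothelial markers lay at 4.73 to 4.82, 4.28 to 4.45 and 3.90 to 4.19 in H1299 and 4.35 to 4.60, 4.42 to 4.52 and 4.55 to 4.65 in H2009. These means hide single markers that differed between the lines. For H1299 minus H2009, CD68 of the leukocyte list stood at 1.95, COL1A1 of the fibroblast list at -0.68 and ENG of the endothelial list at -3.33.

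**Figure D1:**
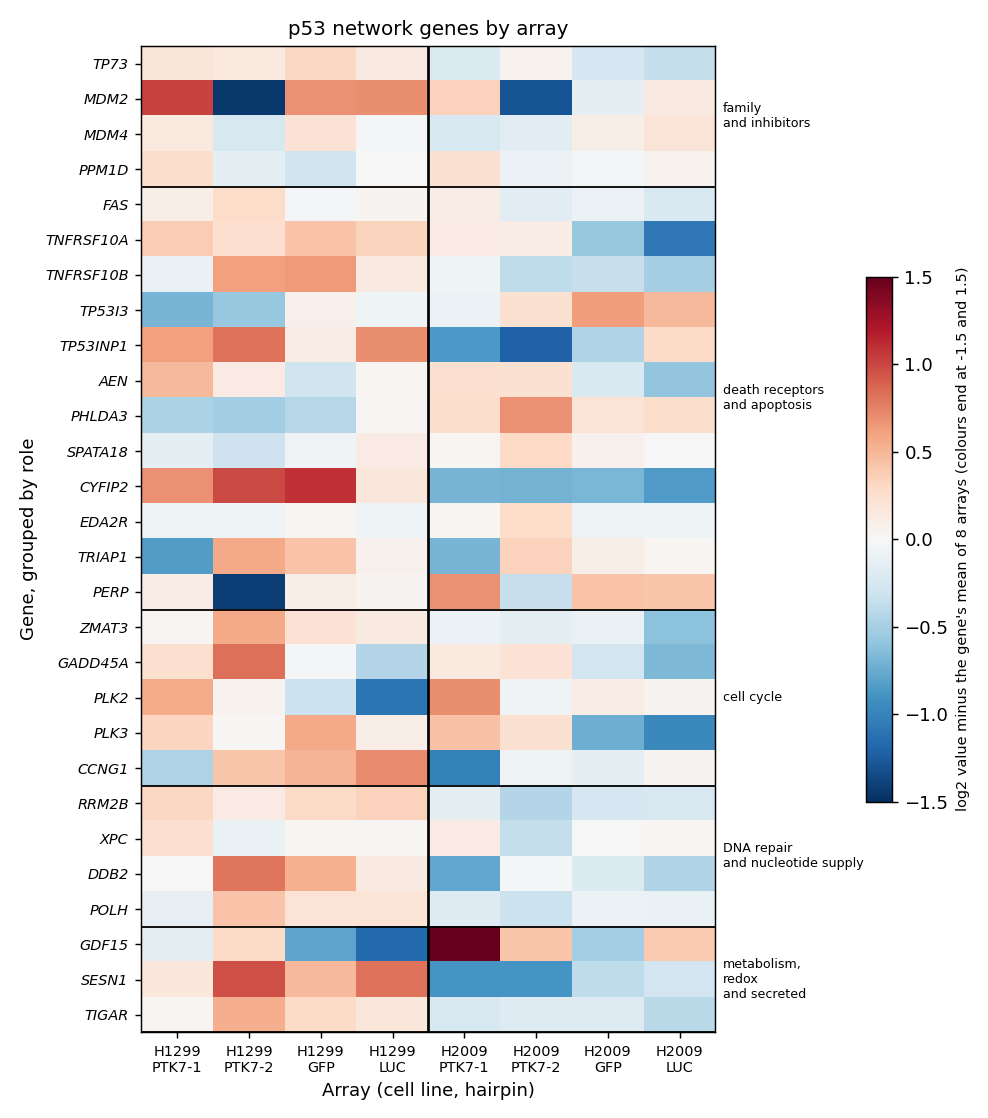
Each row is 1 of the 28 measured genes and each column 1 array. Colour gives the log2 value minus the mean of the gene over the 8 arrays, with blue for lower and red for higher. MDM2 and PERP are lowest in both PTK7-2 columns, and CCNG1 and TRIAP1 in both PTK7-1 columns.

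The PTK7 hairpins differed from each other in 5 members. MDM2, the inhibitor of p53, and PERP, a tetraspan membrane protein of desmosomes that is also a p53 target in apoptosis, were lower with PTK7-2 than with PTK7-1 in both lines. CCNG1, which encodes cyclin G1, TRIAP1, a mitochondrial lipid transfer protein that restrains apoptosis, and DDB2, a sensor of ultraviolet damage in nucleotide excision repair, were lower with PTK7-1 than with PTK7-2 in both lines. These 5 of 28 members passed limma's test of PTK7-1 against PTK7-2 with a Benjamini-Hochberg adjusted p under 0.05 over all genes, where 3.73% of all genes passed. The 2 higher with PTK7-1 stand against 1.94% of all genes and the 3 lower against 1.79%, and 8 members and 18.3% of all genes had an unadjusted p under 0.05. Members were chosen with earlier results of these data known, and how far these counts reflect that choice was not tested. Each hairpin has 1 array per line in this test, so its error is the spread of a hairpin's difference between the lines. In the same test of GFP against LUC, 0 of 28 members and 0% of all genes passed, and 3 had an unadjusted p under 0.05, namely CYFIP2, GADD45A and DDB2, where 3.65% of all genes did.

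The starts of these 5 genes are shown because members of each set were low under the same hairpin. Each window holds 250 bases before and 50 after the gene start in RefSeq, build GRCh38.p14. Capitals mark the CCAAT box on either strand, the site of the NF-Y factor. The windows are those of MDM2 (chr12:68807922-68808221, plus strand), PERP (chr6:138107370-138107669, minus strand), CCNG1 (chr5:163437321-163437620, plus strand), TRIAP1 (chr12:120446335-120446634, minus strand) and DDB2 (chr11:47214204-47214503, plus strand).
MDM2: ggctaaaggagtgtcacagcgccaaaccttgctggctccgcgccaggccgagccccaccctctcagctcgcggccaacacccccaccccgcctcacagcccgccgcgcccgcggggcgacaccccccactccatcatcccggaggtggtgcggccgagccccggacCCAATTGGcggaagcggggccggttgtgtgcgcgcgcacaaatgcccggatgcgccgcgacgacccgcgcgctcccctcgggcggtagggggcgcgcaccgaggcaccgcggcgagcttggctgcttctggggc
PERP: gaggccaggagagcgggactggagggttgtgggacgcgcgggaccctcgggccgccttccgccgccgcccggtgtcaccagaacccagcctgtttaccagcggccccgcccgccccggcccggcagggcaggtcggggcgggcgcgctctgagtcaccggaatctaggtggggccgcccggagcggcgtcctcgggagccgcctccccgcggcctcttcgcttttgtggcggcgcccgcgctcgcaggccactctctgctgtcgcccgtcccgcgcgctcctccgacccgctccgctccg
CCNG1: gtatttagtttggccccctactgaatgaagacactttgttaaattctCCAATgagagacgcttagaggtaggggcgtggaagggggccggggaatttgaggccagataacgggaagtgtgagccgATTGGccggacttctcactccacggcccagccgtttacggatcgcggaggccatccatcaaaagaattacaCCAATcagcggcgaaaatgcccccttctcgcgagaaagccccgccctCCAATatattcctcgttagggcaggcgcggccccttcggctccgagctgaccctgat
TRIAP1: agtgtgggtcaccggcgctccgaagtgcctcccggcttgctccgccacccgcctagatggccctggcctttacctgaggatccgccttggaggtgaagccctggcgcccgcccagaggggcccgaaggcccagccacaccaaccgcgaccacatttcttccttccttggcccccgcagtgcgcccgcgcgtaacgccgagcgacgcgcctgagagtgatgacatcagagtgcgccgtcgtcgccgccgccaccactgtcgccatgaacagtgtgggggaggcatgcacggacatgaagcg
DDB2: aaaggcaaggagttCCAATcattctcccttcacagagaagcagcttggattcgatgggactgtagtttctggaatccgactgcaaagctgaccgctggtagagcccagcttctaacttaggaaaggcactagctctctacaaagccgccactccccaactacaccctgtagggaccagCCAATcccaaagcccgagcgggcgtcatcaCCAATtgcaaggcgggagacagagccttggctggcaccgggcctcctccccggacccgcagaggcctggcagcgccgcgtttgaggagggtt
The windows of MDM2, CCNG1 and DDB2 held 2, 4 and 3 CCAAT boxes, where the 2 of MDM2 overlap on opposite strands, and those of PERP and TRIAP1 held none. A CCAAT box was present in 9 of the 22 members with a window and in 35.7% of all 27305 windows of this length. GC content was 74.7% in MDM2 and 77.0% in PERP, against 56.0% in CCNG1, 68.0% in TRIAP1 and 58.3% in DDB2, where the median of all windows was 58.3%. The p53 half-site, the decamer that p53 binds in pairs, was searched as its usual consensus, which reads the same on both strands. None of these 5 windows matched it. It was found in 2 of the 22 members, AEN and PLK2, and in 6.54% of all windows, and a pair of half-sites with a spacer of up to 13 bases in 0 of the 22 and 0.0293% of all. Known p53 sites of MDM2 lie in its first intron, outside such a window. No window was used for TNFRSF10A, TNFRSF10B, RRM2B, TP53INP1, GADD45A and PHLDA3.

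MDM2 had 10.03 with PTK7-1 and 7.57 with PTK7-2 in H1299, against 9.70 with GFP and 9.72 with LUC. In H2009 it had 9.37 with PTK7-1 and 7.73 with PTK7-2, against 8.88 with GFP and 9.15 with LUC. PTK7-2 gave the lowest of the 4 arrays in each line and PTK7-1 the highest, and the controls lay close together between them. The difference of PTK7-1 minus PTK7-2 was 2.05 ± 0.23 (SE, adjusted p = 0.00821), which is 4.14-fold. In RNA of a whole culture, a lower level in every cell and a loss from some of the cells cannot be told apart. Set against both controls, a comparison added after the values were seen, MDM2 fell by 1.72 ± 0.20 with PTK7-2 (adjusted p = 0.0101) and stood 0.33 ± 0.20 higher with PTK7-1 (adjusted p = 0.586). By line, the PTK7-2 difference was -2.14 in H1299 and -1.29 in H2009.

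PERP had 9.33 with PTK7-1 and 7.80 with PTK7-2 in H1299, against 9.30 with GFP and 9.26 with LUC. The H2009 values were 9.90 with PTK7-1 and 8.87 with PTK7-2, against 9.64 with GFP and 9.62 with LUC. The PTK7-2 array was again the lowest of each line, and the other H1299 arrays lay close together. PTK7-1 minus PTK7-2 was 1.28 ± 0.19 (adjusted p = 0.0171). Against the controls PERP fell by 1.12 ± 0.17 with PTK7-2 (adjusted p = 0.0204).

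CCNG1 had 10.25 with PTK7-1 and 11.13 with PTK7-2 in H1299, against 11.22 with GFP and 11.43 with LUC. It had, in H2009, 9.71 with PTK7-1 and 10.64 with PTK7-2, against 10.58 with GFP and 10.76 with LUC. Only the PTK7-1 array stood apart in either line. PTK7-1 minus PTK7-2 was -0.90 ± 0.13 (adjusted p = 0.0144). Against the controls CCNG1 fell by 1.02 ± 0.11 with PTK7-1 (adjusted p = 0.0108), which is 2.02-fold, and its difference with PTK7-2 was -0.11 ± 0.11 (95% interval -0.37 to 0.14).

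TRIAP1 had 6.40 with PTK7-1 and 7.81 with PTK7-2 in H1299, against 7.67 with GFP and 7.30 with LUC. For H2009 the values were 6.54 with PTK7-1 and 7.59 with PTK7-2, against 7.33 with GFP and 7.26 with LUC. The PTK7-1 array was the lowest and the PTK7-2 array the highest of each line. PTK7-1 minus PTK7-2 was -1.23 ± 0.16 (adjusted p = 0.0115), and the gene fell by 0.92 ± 0.13 with PTK7-1 against the controls (adjusted p = 0.0281). DDB2 followed the same order, at 7.57 with PTK7-1 and 8.38 with PTK7-2 in H1299, against 8.11 with GFP and 7.71 with LUC. In H2009 it had 6.80 with PTK7-1 and 7.55 with PTK7-2, against 7.38 with GFP and 7.12 with LUC. PTK7-1 minus PTK7-2 was -0.78 ± 0.13 (adjusted p = 0.0249). Neither PTK7 hairpin passed for DDB2 against the controls, at -0.39 ± 0.11 with PTK7-1 (adjusted p = 0.185) and 0.39 ± 0.11 with PTK7-2 (adjusted p = 0.140).

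**Figure D2:**
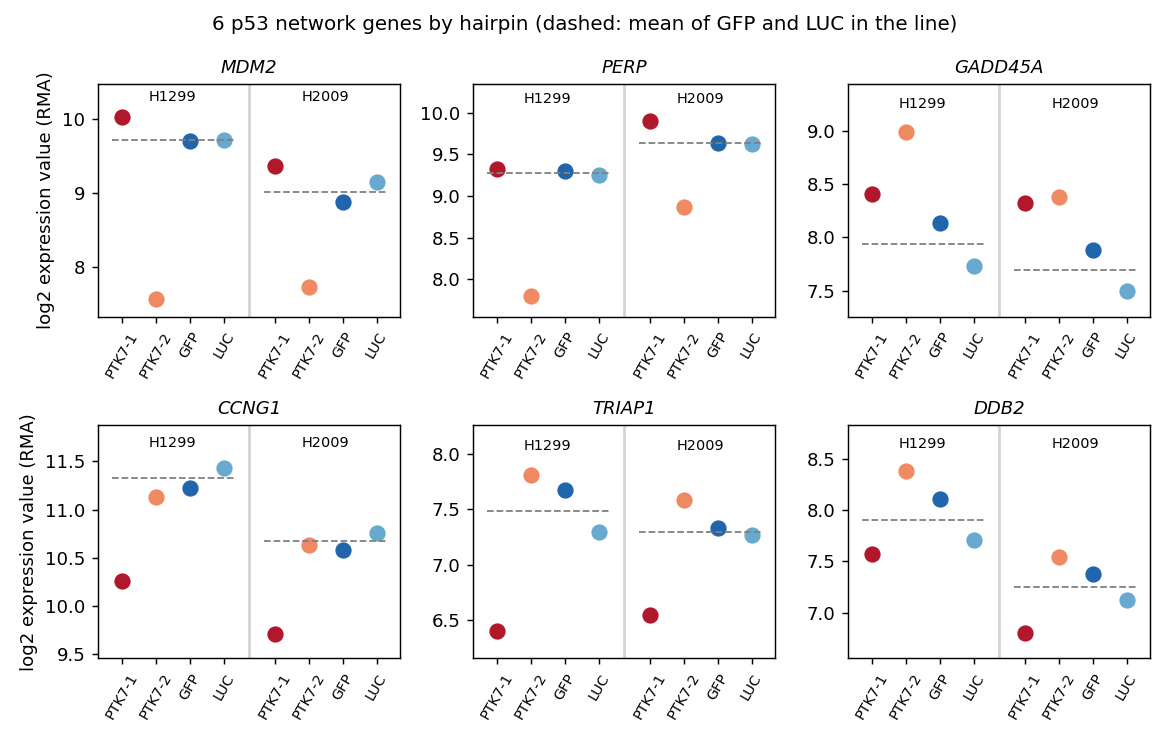
Points are the log2 values of 6 genes on the 8 arrays, ordered by line and hairpin, and dashed lines are the mean of the 2 control arrays of the line. PTK7-2 gives the low points of MDM2 and PERP, PTK7-1 those of CCNG1, TRIAP1 and DDB2, and both PTK7 points of GADD45A lie above both controls in each line.

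Against the controls, 3 of 28 members passed with PTK7-1, all lower (CCNG1, TRIAP1 and TP53I3), where 1.23% of all genes passed and 0.978% were lower. With PTK7-2, 3 passed, MDM2 and PERP lower and GADD45A higher, where 2.15% of all genes passed, 1.76% lower and 0.391% higher. At an unadjusted p under 0.05 there were 10 members with PTK7-1 (12.9% of all genes) and 7 with PTK7-2 (16.8%). Both comparisons use the same 4 control arrays. These counts depend on single arrays. Without any 1 of the 4 control arrays, or without either PTK7-1 array, 0 members passed with PTK7-1, and the count over all genes fell alike, to between 0 and 57, against 226 with every array. For PTK7-2 the count was 0 without the H1299 GFP array and 1 (MDM2) without the H1299 LUC, H2009 GFP, H2009 LUC or H1299 PTK7-2 array, when 18 to 110 of all genes passed, against 395. Between the PTK7 hairpins it was 0 without PTK7-1 in H1299, 1 without PTK7-2 in H1299 (MDM2) and 1 without PTK7-1 in H2009 (TRIAP1), where a hairpin is left with 1 array and 0, 97 and 92 of all genes passed, against 686. DDB2 also missed the threshold without either GFP array. Without PTK7-2 in H2009, which also leaves a hairpin with 1 array, the count between the PTK7 hairpins did not fall. The differences kept their direction throughout, with MDM2 at 1.63 to 2.47 and TRIAP1 at -1.40 to -1.05.

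Among the remaining members, XPC, another sensor in nucleotide excision repair, and PPM1D, a phosphatase that dampens p53 signalling, had the smallest p-values for higher values with PTK7-1, at 0.42 ± 0.14 (adjusted p = 0.149) and 0.36 ± 0.14 (adjusted p = 0.214). MDM4, the partner of MDM2, differed by 0.15 (95% interval -0.24 to 0.55), and TP73, the gene of p73, by -0.12 (95% interval -0.48 to 0.24). The lowest of the 4 hairpins in both lines was PTK7-2 for MDM2, PERP, RRM2B and XPC and PTK7-1 for CCNG1, DDB2, TP53I3 and TRIAP1, where 10.5% and 11.3% of all genes showed these orders. PTK7-1 was the highest in both lines for AEN, MDM2, PERP, PLK2, PPM1D and XPC (8.52% of all genes), and PTK7-2 for DDB2, GADD45A, TIGAR and TRIAP1 (12.3%).

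**Figure D3:**
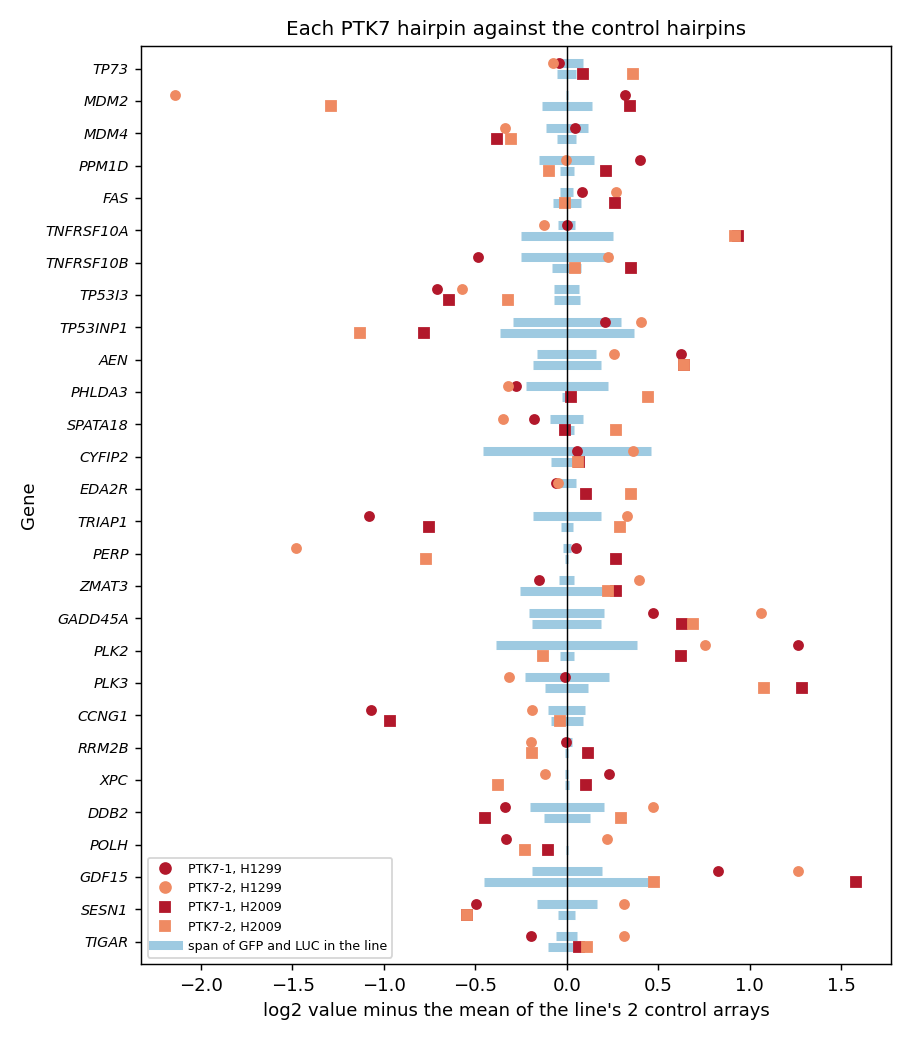
For each gene, points give the log2 value of a PTK7 hairpin minus the mean of the 2 control arrays of its line, with circles for H1299 and squares for H2009. Blue bars span GFP and LUC in the line, above for H1299 and below for H2009. The PTK7-2 points of MDM2 lie at -2.14 and -1.29 and its PTK7-1 points at 0.32 and 0.35.

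The knockdown comparison sets the mean of the PTK7 arrays against that of the control arrays, so a single PTK7 hairpin can move it. GADD45A, a growth arrest and stress protein, AEN, an exonuclease of apoptosis, and GDF15, a secreted stress cytokine, lay above the control arrays with either PTK7 hairpin in each line, and TP53I3, a quinone oxidoreductase, lay below them. These orders were shown by 4.93% of all genes upward and 4.53% downward. Averaged over the lines, 0 of 28 members passed limma's test of PTK7 against control hairpins, with or without the hairpin as a block. Of all genes 0% passed without the block, and 149 of 18404 with it, 42 higher and 107 lower. This comparison sets hairpins against each other, and the block takes the difference between hairpins of a group out of its error. The 149 calls therefore hold for the hairpins used, and whether they extend to PTK7 knockdown by other hairpins was not tested. Without the block, an unadjusted p under 0.05 was reached by 7 of 28 members and 9.88% of all genes. The median difference of the members was 0.02, as it was over all genes, and 14 of 28 lay above 0.

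GADD45A had 8.40 with PTK7-1 and 9.0 with PTK7-2 in H1299, against 8.14 with GFP and 7.73 with LUC. The H2009 values were 8.32 with PTK7-1 and 8.38 with PTK7-2, against 7.88 with GFP and 7.50 with LUC. The averaged difference was 0.71 ± 0.17 (adjusted p = 0.245), and with PTK7-2 alone GADD45A rose by 0.88 ± 0.14 against the controls (adjusted p = 0.0247). With PTK7-1 the difference was 0.55 to 0.59 over 6 other settings and did not pass. The direct test between the PTK7 hairpins did not pass for GADD45A either. The control hairpins themselves were 0.39 ± 0.16 apart, with GFP above LUC in both lines.

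TP53I3 had 6.12 with PTK7-1 and 6.26 with PTK7-2 in H1299, against 6.91 with GFP and 6.77 with LUC. It had, in H2009, 6.74 with PTK7-1 and 7.06 with PTK7-2, against 7.45 with GFP and 7.31 with LUC. It had the smallest p of the members in the averaged comparison, at -0.56 ± 0.11 (adjusted p = 0.190). With PTK7-1 alone it fell by 0.68 ± 0.12 (adjusted p = 0.0435). Over 6 other settings the adjusted p was 0.0334 to 0.0594, and 2 of them end the call. With PTK7-2 the difference over the same settings was -0.46 to -0.43 and did not pass. The direct test between the PTK7 hairpins did not pass for TP53I3 either.

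AEN had 8.11 with PTK7-1 and 7.75 with PTK7-2 in H1299, against 7.32 with GFP and 7.65 with LUC. For H2009 the values were 7.85 under PTK7-1 and 7.85 under PTK7-2, against 7.40 with GFP and 7.02 with LUC, and the averaged difference was 0.54 ± 0.14 (adjusted p = 0.265). AEN and PLK2, a polo-like kinase, are the members whose start window holds a p53 half-site, which capitals mark together with the CCAAT boxes of AEN. The windows are those of AEN (chr15:88621090-88621389, plus strand) and PLK2 (chr5:58460037-58460336, minus strand).
AEN: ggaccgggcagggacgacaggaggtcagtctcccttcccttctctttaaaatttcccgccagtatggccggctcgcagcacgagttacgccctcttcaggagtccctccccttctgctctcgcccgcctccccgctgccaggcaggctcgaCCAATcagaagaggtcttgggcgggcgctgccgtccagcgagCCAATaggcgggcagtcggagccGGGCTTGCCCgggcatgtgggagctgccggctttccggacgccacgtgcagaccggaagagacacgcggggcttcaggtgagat
PLK2: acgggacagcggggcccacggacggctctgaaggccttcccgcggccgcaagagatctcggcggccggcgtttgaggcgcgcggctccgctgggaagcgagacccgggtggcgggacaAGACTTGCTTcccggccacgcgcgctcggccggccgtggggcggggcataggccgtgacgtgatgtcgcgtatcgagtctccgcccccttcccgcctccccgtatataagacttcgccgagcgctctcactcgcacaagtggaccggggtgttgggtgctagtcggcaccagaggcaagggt
PLK2 had 9.97 with PTK7-1 and 9.46 with PTK7-2 in H1299, against 9.09 with GFP and 8.32 with LUC. In H2009 it had 10.11 with PTK7-1 and 9.36 with PTK7-2, against 9.53 with GFP and 9.45 with LUC. PTK7-1 gave the highest PLK2 value in each line, while PTK7-2 lay above the controls in H1299 and below them in H2009. The PLK2 difference was 1.01 ± 0.33 in H1299 (adjusted p = 0.545) and 0.25 ± 0.33 in H2009 (adjusted p = 0.867).

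GDF15 had 7.64 with PTK7-1 and 8.08 with PTK7-2 in H1299, against 7.0 with GFP and 6.62 with LUC. The H2009 values were 9.31 with PTK7-1 and 8.20 with PTK7-2, against 7.28 with GFP and 8.18 with LUC. Its averaged difference of 1.04 ± 0.30 was the largest upward one of the members, and did not pass (adjusted p = 0.316). In H2009 the PTK7-2 array lay only just above LUC.

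Within single lines, 0 of 28 members passed in H1299 or in H2009, where 0.00543% and 0% of all genes did. An unadjusted p under 0.05 was reached by 4 members in H1299 (7.48% of all genes) and 7 in H2009 (7.98%). Both PTK7 arrays lay above both controls for 5 members in H1299 (15.6% of all genes) and 7 in H2009 (26% of all genes), and below them for 5 in either line (16.1% and 18.9%). In H2009 the smallest p-values were those of PLK3, another polo-like kinase, and TNFRSF10A, a death receptor for the ligand TRAIL. PLK3 had 7.07 with PTK7-1 and 6.86 with PTK7-2 in H2009, against 5.90 with GFP and 5.67 with LUC, a difference of 1.18 ± 0.20 (adjusted p = 0.222). TNFRSF10A had 7.65 with PTK7-1 and 7.64 with PTK7-2 in H2009, against 6.96 with GFP and 6.46 with LUC, a difference of 0.93 ± 0.18 (adjusted p = 0.256). In H1299 the differences were -0.16 ± 0.20 for PLK3, at 6.95, 6.64, 7.19 and 6.73 with PTK7-1, PTK7-2, GFP and LUC, and -0.06 ± 0.18 for TNFRSF10A, at 7.92, 7.79, 7.96 and 7.87.

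TP53INP1, a stress protein of autophagy and apoptosis, had 5.81 with PTK7-1 and 5.46 with PTK7-2 in H2009, against 6.23 with GFP and 6.96 with LUC. In H1299 it had 7.29 with PTK7-1 and 7.49 with PTK7-2, against 6.79 with GFP and 7.38 with LUC. The direct test of the H1299 minus the H2009 knockdown difference passed for 0 of 28 members and 0% of all genes. The smallest p-values were those of PLK3 at -1.35 ± 0.28 (adjusted p = 0.848), TNFRSF10A at -0.99 ± 0.25 (adjusted p = 0.848) and TP53INP1 at 1.26 ± 0.41 (adjusted p = 0.895), the 3 members with an unadjusted p under 0.05, against 5.17% of all genes. In the comparison averaged over the lines, MDM4 stood at -0.25 ± 0.12 (adjusted p = 0.556), CCNG1 at -0.57 ± 0.26 (adjusted p = 0.535), SESN1 at -0.32 ± 0.18 (adjusted p = 0.632), MDM2 at -0.69 ± 0.56 (adjusted p = 0.750) and TP73 at 0.08 ± 0.10 (adjusted p = 0.837).

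Between the lines, over all hairpins, more of the members that passed were higher in H1299, the line without p53 protein, than were lower. Of 28 members, 12 passed, 10 higher and 2 lower in H1299, where 36.2% of all genes passed, 19.6% higher and 16.6% lower. An unadjusted p under 0.05 was reached by 15 members and 43.5% of all genes. The median difference of H1299 minus H2009 was 0.33 over the members and 0.03 over all genes, and 20 of 28 lay above 0. The lines differ in many genes, and the share of members that passed is near that of all genes. All 4 H1299 arrays lay above all 4 H2009 arrays for 8 members (19% of all genes) and below them for PHLDA3 alone (16.2% of all genes).

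**Figure D4:**
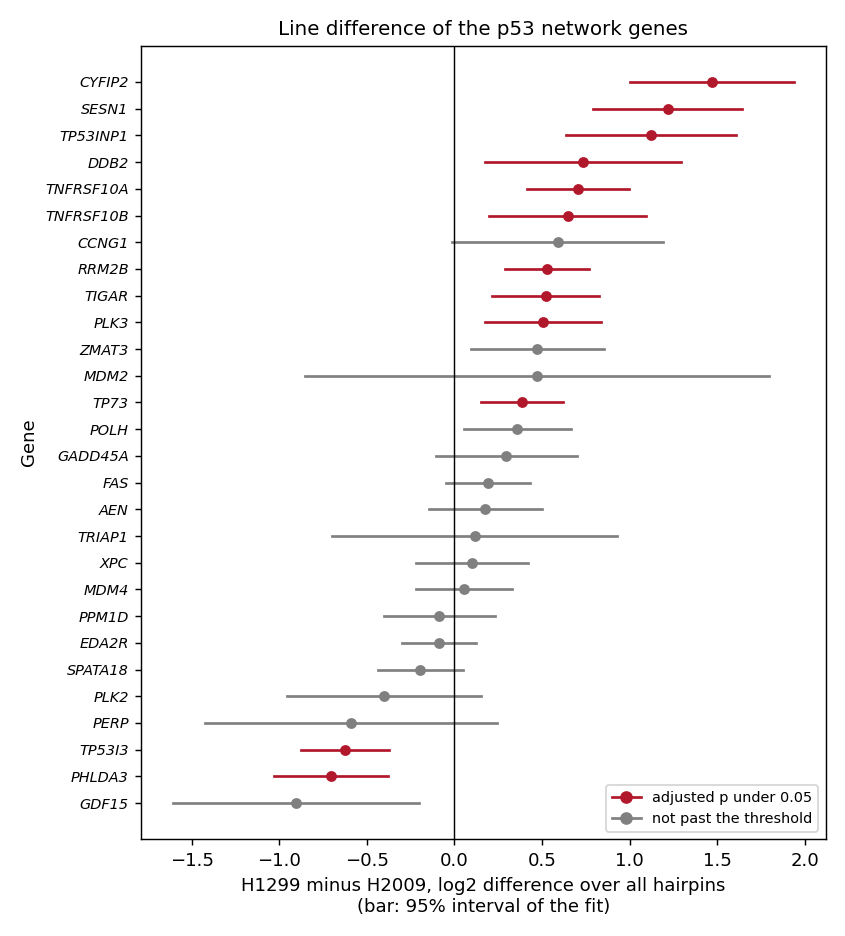
Points are the log2 difference of H1299 minus H2009 over all hairpins, with the 95% interval of the fit, for the 28 measured genes ordered by size. The 12 red genes passed the threshold and range from PHLDA3 at -0.70 to CYFIP2 at 1.47.

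CYFIP2, a subunit of the WAVE actin regulator, had the largest difference, at 1.47 ± 0.20 (adjusted p = 0.00113). It had 5.20 with PTK7-1, 5.50 with PTK7-2, 5.60 with GFP and 4.68 with LUC in H1299, against 3.81, 3.80, 3.83 and 3.66 with the same hairpins in H2009. All H1299 arrays were above all H2009 arrays, whose values lay below the array medians. TP53INP1 differed by 1.12 ± 0.21 (adjusted p = 0.00456), with the H1299 LUC and PTK7 arrays above every H2009 array and the H1299 GFP array below the H2009 LUC array. Under control hairpins only, the TP53INP1 difference was 0.49 and did not pass (adjusted p = 0.292). The death receptor genes TNFRSF10A and TNFRSF10B, whose products bind TRAIL, differed by 0.70 ± 0.12 (adjusted p = 0.00384) and 0.65 ± 0.19 (adjusted p = 0.0337). TNFRSF10B had 8.62 with PTK7-1, 9.33 with PTK7-2, 9.36 with GFP and 8.86 with LUC in H1299, against 8.65, 8.34, 8.38 and 8.22 in H2009. The H1299 PTK7-1 array lay within the H2009 range. FAS, another death receptor gene, differed by 0.19 ± 0.10 and did not pass (adjusted p = 0.210).

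SESN1, a sestrin that restrains mTORC1, differed by 1.22 ± 0.18 (adjusted p = 0.00173). It had 5.73 with PTK7-1, 6.54 with PTK7-2, 6.07 with GFP and 6.40 with LUC in H1299, against 4.70, 4.70, 5.20 and 5.29 in H2009, with no overlap of the lines. The H2009 values of SESN1 lay below the array medians, as those of CYFIP2 did. TIGAR, which lowers glycolytic flux, and RRM2B, a ribonucleotide reductase subunit, differed by 0.52 ± 0.13 and 0.53 ± 0.10 and were also separated. All 4 repair and nucleotide genes lay above 0. DDB2 (0.73 ± 0.24, adjusted p = 0.0482) and RRM2B passed, and XPC and the translesion polymerase gene POLH did not. TP73 was higher in H1299 by 0.39 ± 0.10 (adjusted p = 0.0195), with 5.96, 5.93, 6.09 and 5.92 in H1299 and 5.56, 5.84, 5.53 and 5.43 in H2009 for PTK7-1, PTK7-2, GFP and LUC. Of the 12 death receptor and apoptosis genes, 6 passed, 4 higher and 2 lower in H1299, against the 36.2% of all genes above, and 7 of the 12 differences lay above 0. The lower ones that passed were PHLDA3, which blocks AKT at the membrane, at -0.70 ± 0.14 (adjusted p = 0.00624), and TP53I3 at -0.62 ± 0.11 (adjusted p = 0.00331). PHLDA3 had 5.91 with PTK7-1, 5.86 with PTK7-2, 5.96 with GFP and 6.41 with LUC in H1299, against 6.64, 7.06, 6.59 and 6.64 in H2009. Under control hairpins only, the PHLDA3 difference was -0.44 and did not pass (adjusted p = 0.163).

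MDM2 and MDM4 did not pass, at 0.47 ± 0.56 (adjusted p = 0.603) and 0.05 ± 0.12 (adjusted p = 0.789). With the hairpin as a block, MDM2 passed at 0.47 ± 0.15 (adjusted p = 0.0411), as did CCNG1, PERP, GDF15 and ZMAT3, for a count of 17, while all genes that passed came to 7770 of 18404, against 6659 without the block. The MDM2 difference turned to -0.14 without the H1299 PTK7-1 array, which leaves the H1299 PTK7 group with PTK7-2 alone. Under control hairpins only, 7 members passed, 6 higher and 1 lower in H1299, where 24.8% of all genes passed (12.5% higher and 12.3% lower), 10 members and 35% of all genes had an unadjusted p under 0.05, and 13 members passed with the block, as did 5767 of 18404 genes, against 4566 without it. The largest were CYFIP2 at 1.40 ± 0.28, TNFRSF10A at 1.20 ± 0.18, PLK3 at 1.18 ± 0.20 and SESN1 at 0.99 ± 0.26. Without the block, DDB2, PHLDA3, TIGAR, TNFRSF10B and TP53INP1 passed over all hairpins but not under control hairpins. Over all hairpins the count was 7 without the H1299 GFP or the H2009 LUC array (5548 and 4929 of all genes), when TP73, TNFRSF10B, PLK3, DDB2 and TIGAR missed the threshold. All of these but TIGAR also missed it when certain other arrays were left out. The remaining members that had passed over all hairpins did so with any single array left out. Under control hairpins it was 3 without either H1299 control array, 2 without the H2009 GFP array and 1 without the H2009 LUC array, when 2196 to 2970 of all genes passed. The lines also differ in the epithelial markers and in each of the 4 mesenchymal markers given above, FN1 in the other direction from the rest, and the part of that difference in these values was not tested.

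Dim members besides CYFIP2, and SESN1 in H2009, were SPATA18, a mitochondrial quality control gene, and EDA2R, a receptor of the TNF family. They lay at 3.34 to 3.95 and 3.58 to 3.94 on all arrays, below the array medians, where differences are compressed. ZMAT3, a zinc finger RNA-binding protein, differed between the lines by 0.47 ± 0.16 (adjusted p = 0.0571, and 0.0286 with the block).

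Other genes of the pathway give the setting. Of 16 measured regulators upstream of p53, 11 passed between the lines, 6 higher and 5 lower in H1299, and of 24 other p53 targets 9 passed, 4 higher and 5 lower, where 36.2% of all genes did. Among the targets, the CDK inhibitor gene CDKN1A was higher by 1.28 ± 0.12, TNFRSF10D, a decoy receptor for TRAIL, by 1.59 ± 0.27 and SESN2, another sestrin, by 1.58 ± 0.20. ABCA12, THBS1 and PMAIP1, a BH3-only protein of apoptosis, stood at -2.06 ± 0.16, -2.57 ± 0.30 and -1.22 ± 0.15. Among the regulators, the damage kinase genes ATM and ATR stood at 0.55 ± 0.10 and 0.36 ± 0.09 and PPP1R13B, an activator of p53 in apoptosis, at 1.21 ± 0.16. The coactivator gene EP300, the checkpoint kinase gene CHEK2 and CDKN2A, the locus of the MDM2 inhibitor ARF, stood at -1.41 ± 0.08, -0.77 ± 0.10 and -0.69 ± 0.09.

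In the averaged knockdown comparison 0 of these 16 and 0 of these 24 passed, where 0% of all genes did. An unadjusted p under 0.05 was reached by 2 genes of each list and by 9.88% of all genes. Between the PTK7 hairpins 1 of each passed, both higher with PTK7-1, where 1.94% of all genes were. TP53BP2, which steers p53 towards apoptotic genes, had 9.05 with PTK7-1 and 8.29 with PTK7-2 in H1299, against 8.80 with GFP and 8.63 with LUC. It had, in H2009, 8.68 with PTK7-1 and 7.77 with PTK7-2, against 8.47 with GFP and 8.31 with LUC, and PTK7-1 minus PTK7-2 was 0.83 ± 0.13 (adjusted p = 0.0192). DRAM1, a lysosomal protein of autophagy, had 7.16 with PTK7-1 and 5.54 with PTK7-2 in H1299, against 7.52 with GFP and 7.16 with LUC. For H2009 the values were 7.52 with PTK7-1 and 6.25 with PTK7-2, against 7.05 with GFP and 7.14 with LUC. DRAM1 was thus lowest with PTK7-2 in both lines, as MDM2 and PERP were, and PTK7-1 minus PTK7-2 was 1.44 ± 0.26 (adjusted p = 0.0296). Against the controls DRAM1 fell by 1.32 ± 0.22 with PTK7-2 (adjusted p = 0.0317).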

How the data were processed

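RNA of 8 cultures was labelled with biotin and hybridised to Affymetrix arrays. The authors deposited log2 values for 32321 probe sets, for which the submitters' processing notes name RMA and R 2.14.0. The genome build is not given in the sources used here. A single symbol was available for 19158 probe sets, and each of 18404 genes was read from its brightest one. limma 3.58.1 (R 4.3.3) fitted 4 group means to all arrays for the line and knockdown comparisons, and hairpin plus line for the hairpin comparisons. p-values were adjusted by Benjamini-Hochberg across the whole table, with a threshold of 0.05, and errors after ± are standard errors. The labels give both lines the same 4 hairpins, which pairs arrays across lines. Same-hairpin deviations correlated with r = 0.230 for the control and 0.407 for the PTK7 pair, and the hairpin was therefore also fitted as a replicate block. The pairing suits the line comparisons, which set the same hairpins against each other across lines. In the knockdown comparisons the block leaves the difference between hairpins of a group out of the error, so blocked calls there hold for these hairpins only.

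Members and lists were chosen with earlier results of these data known. Members named with values were those past the threshold among the 8 largest line differences, those past it in other comparisons with up to 4 more per direction by unadjusted p, the p73 and MDM genes, and up to 3 genes per direction of 2 further lists. The rest were added to account for the list. Setting each PTK7 hairpin against the controls was decided after the data were seen. Other settings tried were a further quantile step, array medians set equal, the dimmest 40% of genes dropped, probe sets averaged, other priors, an additive model, each line fitted alone, and each array omitted. Scripts were tested on simulated data. Figures used matplotlib 3.10.9.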

Additional observations from a re-analysis of the deposited data

Results flagged for a closer look

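For 5 members the difference from the control hairpins differed between the PTK7 hairpins in the direct test of PTK7-1 minus PTK7-2. The difference was 2.05 for MDM2, 1.28 for PERP, -1.23 for TRIAP1, -0.90 for CCNG1 and -0.78 for DDB2, with the same sign in both lines for each. PTK7 itself was not lower with the same hairpin in both lines, at 5.63 with PTK7-1 and 5.53 with PTK7-2 in H1299 and 5.63 and 5.94 in H2009. Sequences of the hairpins were not used here, and their part in these differences was not tested.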

How the results depend on the processing

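Of 571 refits of 82 named differences under settings other than leaving out an array, 567 kept their direction and side of the threshold, 3 lost their call (DDB2 between the lines with a robust prior, and TP53I3 with PTK7-1 after quantile normalization and with a trended prior) and 1 gained it (MDM2 between the lines, with the replicate block). Most of the 82 had not passed in the main fit, and such a difference counts as kept when it again does not pass. Only those that had passed could lose a call, so the totals here and below overstate how stable the calls are. With the hairpin as a replicate block, the members past the threshold under control hairpins came to 13, against 7, and the block changed no other call of the members than those named in the report and PLK2, TNFRSF10B, DDB2, TIGAR, CCNG1 and MDM2 under control hairpins. Without 1 array, 585 of 656 kept direction and call, 65 lost the call and 6 changed sign. Member counts then ranged from 7 to 15 between the lines, 1 to 9 under control hairpins, 0 to 6 between the PTK7 hairpins, 0 to 3 for PTK7-1 and 0 to 3 for PTK7-2 against the controls. The differences that changed sign ranged from -0.14 to 1.09 for MDM2 and -0.0413 to 0.15 for MDM4 between the lines, from -0.32 to 0.0775 for TP73 and -0.0638 to 0.37 for MDM4 between the PTK7 hairpins, and from -0.56 to 0.0629 for PHLDA3 between GFP and LUC. None of them passed with an array left out. The knockdown counts of members were 0 under every setting run. The cause of these changes was not tested, beyond the smaller number of arrays. A lone array left in a group is assumed to vary like the other groups. Detection above background was not used here.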
